A study of Mus musculus with 6 samples.

Results

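The genes described here are 36 transcripts of macrophages and other leukocytes, measured in whole embryonic mouse kidney at stage E13.5. They were listed by name, and all 36 of the 36 were measured among 18193 genes. Where several probe sets were annotated to a gene and to no other, the one brightest on average across the 6 arrays stood for it. The list was divided into 23 macrophage genes, which mark the macrophage itself or close myeloid cells, and 13 pan-leukocyte genes, which most white blood cells carry.

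Double-null kidneys (Fz4-/-Fz8-/-, arrays M1, M2 and M3) were compared with Fz8-null kidneys (Fz4+/+Fz8-/-, arrays C1, C2 and C3). Both genotypes lack the Wnt receptor Fz8, so the comparison is of Fz4 loss on an Fz8-null background, and no wild-type kidney was analysed here. All mice were hybrids of C57BL/6, 129X1/SvJ and 129S1/Sv. Each array was hybridized with RNA from whole E13.5 kidneys, and whether 1 embryo or several gave the RNA of an array is not stated in the labels. Arrays carry no read depth, and the 3 arrays per genotype limit the precision. Values are log2 intensities, so a difference of 1 is a doubling.

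Macrophages enter the kidney early in its development, from precursors made in the yolk sac and the fetal liver, and lie among the ureteric branches and nephrogenic cells, where they clear dying cells. They depend on the CSF1 receptor, whose expression needs the transcription factor PU.1, the product of Spi1. Their marker genes encode receptors for debris and antibody, complement proteins and lysosomal enzymes. Pan-leukocyte genes encode surface and signalling proteins common to blood cells outside the red lineage. Liver, a blood-forming organ at this stage, and blood in the vessels also hold such cells.

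The targeted receptor gene matched the genotype labels. Fzd4 read 5.29, 4.96 and 3.89 in double-null kidneys and 10.74, 10.86 and 10.93 in Fz8-null kidneys. Fzd8 lay near the background of the arrays in both genotypes, with means of 3.69 ± 0.18 in double-null and 3.98 ± 0.42 in Fz8-null kidneys (SD, n = 3 each).

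The C1q genes open the account of single members because one of them had the smallest p of the 36. C1qa, C1qb and C1qc encode the 3 chains of the complement recognition protein C1q, which macrophages secrete, and they neighbour each other on chromosome 4. The bases before the annotated starts of C1qb (chr4:136886201-136886450, minus strand) and C1qc (chr4:136892915-136893164, minus strand) are shown from RefSeq on GRCm38.p6. They are given 5′ to 3′ with the PU.1 core GAGGAA, or its reverse complement, in capitals.
C1qb: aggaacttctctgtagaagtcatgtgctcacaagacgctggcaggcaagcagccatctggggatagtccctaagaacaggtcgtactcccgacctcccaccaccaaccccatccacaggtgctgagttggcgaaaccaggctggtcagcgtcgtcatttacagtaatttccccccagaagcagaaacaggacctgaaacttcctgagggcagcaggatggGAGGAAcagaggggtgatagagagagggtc
C1qc: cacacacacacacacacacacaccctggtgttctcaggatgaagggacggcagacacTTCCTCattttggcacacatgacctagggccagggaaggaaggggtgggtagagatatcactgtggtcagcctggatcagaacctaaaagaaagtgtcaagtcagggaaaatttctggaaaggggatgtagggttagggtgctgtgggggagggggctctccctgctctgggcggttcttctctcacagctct

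The core began 30 bases before the C1qb start and 193 bases before the C1qc start used here. The C1qc gene was annotated to reach chr4:136892936, so the last bases of its window lie within the gene. Promoter sequences were matched for 28 of the 36 members. Within the 250 bases before a start, 14 of the 28 held the core on either strand (50%), against 6986 of 27025 genes (25.9%). A match of letters is a description and not a bound site. Among the 14 were Mrc1, Stab1, Fcgr1, Fcgr3, Ctss, Cd68, Itgam, Aif1, Pf4, Ptprc, Cd53 and Laptm5, while no core was found in that window for Lyz2, Timd4, Cx3cr1 or Coro1a.

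No member passed the threshold in the comparison of double-null with Fz8-null kidneys. By limma with Benjamini-Hochberg adjustment over all genes, 0 of 36 members had an adjusted p under 0.05, where 0.0275% of all genes did (0.00550% higher and 0.0220% lower), and the smallest adjusted p among members was 0.314. At an unadjusted p under 0.05, 5 members lay higher and 0 lower, which were C1qb, Timd4, Cybb, Ctss and Cd53. Over all genes, 6.05% were higher and 9.23% lower at that level. In whole kidney, fewer cells of a type and less RNA per cell cannot be told apart.

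The class medians differed, but they also varied widely between arrays. Pooled within genotypes, the SD of the class median per array was 0.33 for macrophage and 0.43 for pan-leukocyte genes, beside 0.045 over all genes. Of the 23 macrophage genes 18 lay higher in double-null kidneys and 5 lower, with a median log2 difference of 0.25. The pan-leukocyte genes were divided, 6 higher and 7 lower, with a median of -0.0062. Over all genes 41.9% lay higher, and the median was -0.061. Array weights, an alternative fit, weight each array by how well it matches its group over all genes. With them the macrophage median turned to -0.10 and the pan-leukocyte median went further down, to -0.46, beside -0.075 over all genes. In that fit 12 of 36 members lay higher, beside 42.1% of all genes. Over the 18193 genes the array medians averaged 7.17 in double-null and 7.35 in Fz8-null kidneys. Setting these to be equal moved the median of all genes by 0.18 on the log2 scale, to 0.12, and put 9 members higher and 0 lower without overlap of the groups, beside 13.0% and 6.36% of all genes. Relative to all genes the macrophage median was 0.32 and the pan-leukocyte median 0.055 as deposited. Equal medians cannot change these relative values, since every gene of an array moves by the same amount. With quantile normalization these relative medians were 0.40 and 0.10. The difference between the classes was not tested, since the members were chosen with earlier results known.

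**Figure D1:**
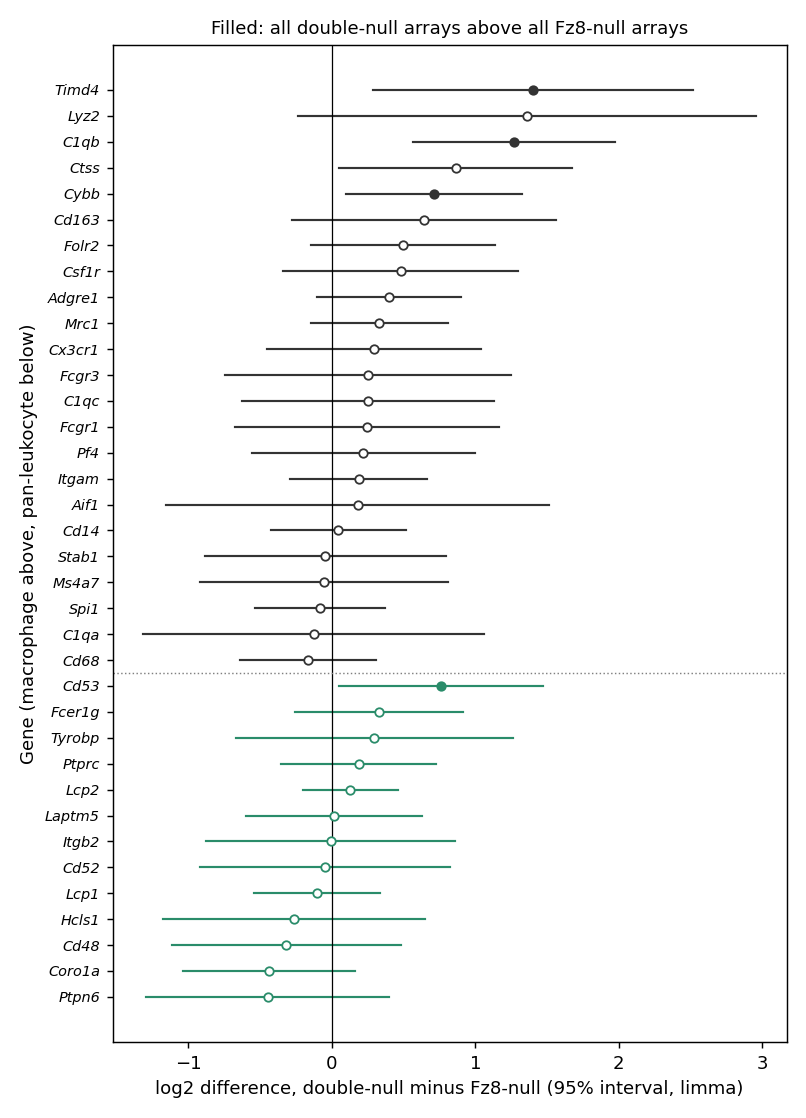
log2 differences (double-null minus Fz8-null) of the 36 genes on the horizontal axis, with 95% intervals from limma, macrophage genes above the dotted line and pan-leukocyte genes below it. Filled points mark Timd4, C1qb, Cybb and Cd53, whose 3 double-null arrays all lay above the 3 Fz8-null arrays, and the intervals of 31 genes include 0.

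The double-null arrays were spread widely among themselves. M1 was the lowest of all 6 arrays for 20 of 36 members, beside 18.1% of all genes. M2 or M3 was the highest for 30, beside 37.2%. For 17 members M1 lay below the Fz8-null mean while both M2 and M3 lay above it, as it did for 5.44% of all genes. The median SD of the members was 0.60 among double-null and 0.17 among Fz8-null arrays, against 0.24 and 0.16 over all genes. The SD was larger in double-null kidneys for 33 of 36 members, where 69.8% of all genes had the larger SD there.

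In M1 the pan-leukocyte genes lay low, while the macrophage genes lay near all genes. In M1 the median macrophage gene lay at -0.15 relative to the Fz8-null mean and the median pan-leukocyte gene at -0.68, while all genes had a median of -0.077, and those with a mean of at least 6 a median of -0.17. Of the pan-leukocyte genes 10 of 13 read below every Fz8-null array in M1, and of the macrophage genes 11 of 23, beside 42.0% of all genes. Macrophage genes above every Fz8-null array in M1 numbered 5, beside 27.3% of all genes.

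In M2 and M3 many members lay high, and the classes stood apart in M2. In M2 the macrophage median was 0.73 and the pan-leukocyte median 0.044. In M3 the medians were nearly equal, at 0.56 and 0.52. Above every Fz8-null array were 16 of 23 macrophage and 7 of 13 pan-leukocyte genes in M2, beside 28.0% of all genes, and 17 of 23 and 11 of 13 in M3, beside 27.0%. The macrophage median exceeded the pan-leukocyte median by 0.53 in M1, 0.68 in M2 and 0.040 in M3. In the Fz8-null arrays the gaps lay between -0.062 and 0.048, but each gene was centred on the mean of those arrays. That centring draws their gaps toward 0, so they are no reference for the double-null gaps. Few members lay below every Fz8-null array in M2, 5 of 36 beside 46.9% of all genes, or in M3, 1 of 36 beside 26.0%.

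**Figure D2:**
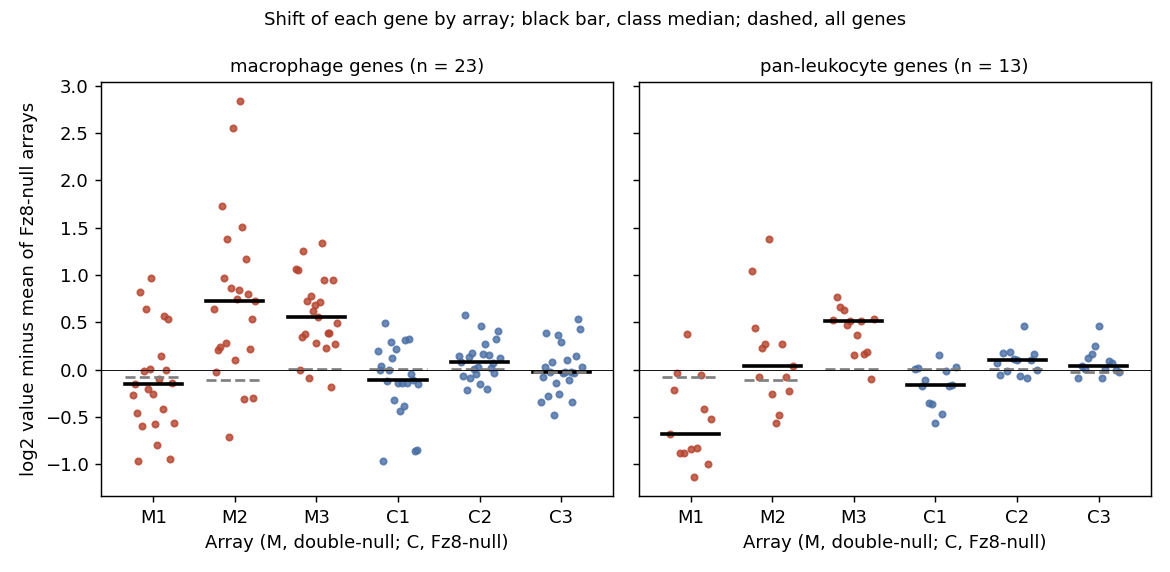
Each point is the log2 value of 1 gene minus its mean over the Fz8-null arrays (vertical axis), by array, for 23 macrophage genes on the left and 13 pan-leukocyte genes on the right. Black bars are class medians and dashed bars the medians of all genes. Pan-leukocyte genes centre at -0.68 in M1 and 0.52 in M3, and macrophage genes at -0.15 in M1 and 0.73 in M2.

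Leaving out M1 put 31 members higher, beside 42.5% of all genes, with medians of 0.65 for macrophage and 0.29 for pan-leukocyte genes, and again 0 members passed. The groups were then without overlap for 20 members on the higher side and 0 on the lower, beside 10.3% and 15.6% of all genes. Leaving out M3 put 19 higher, beside 39.9% of all genes, with medians of 0.13 and -0.25. The groups were then without overlap for 6 members on the higher and 5 on the lower side, beside 19.2% and 34.1%. Without M3, 3292 of all genes passed (18.1%) and 3 members did, which were C1qb at 1.28 (limma adjusted p = 0.0461), Timd4 at 1.76 (0.0383) and Ptpn6 at -0.85 (0.0342). Leaving out C1 put 5 members higher and 3 lower without overlap, beside 16.2% and 23.2% of all genes.

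**Figure D3:**
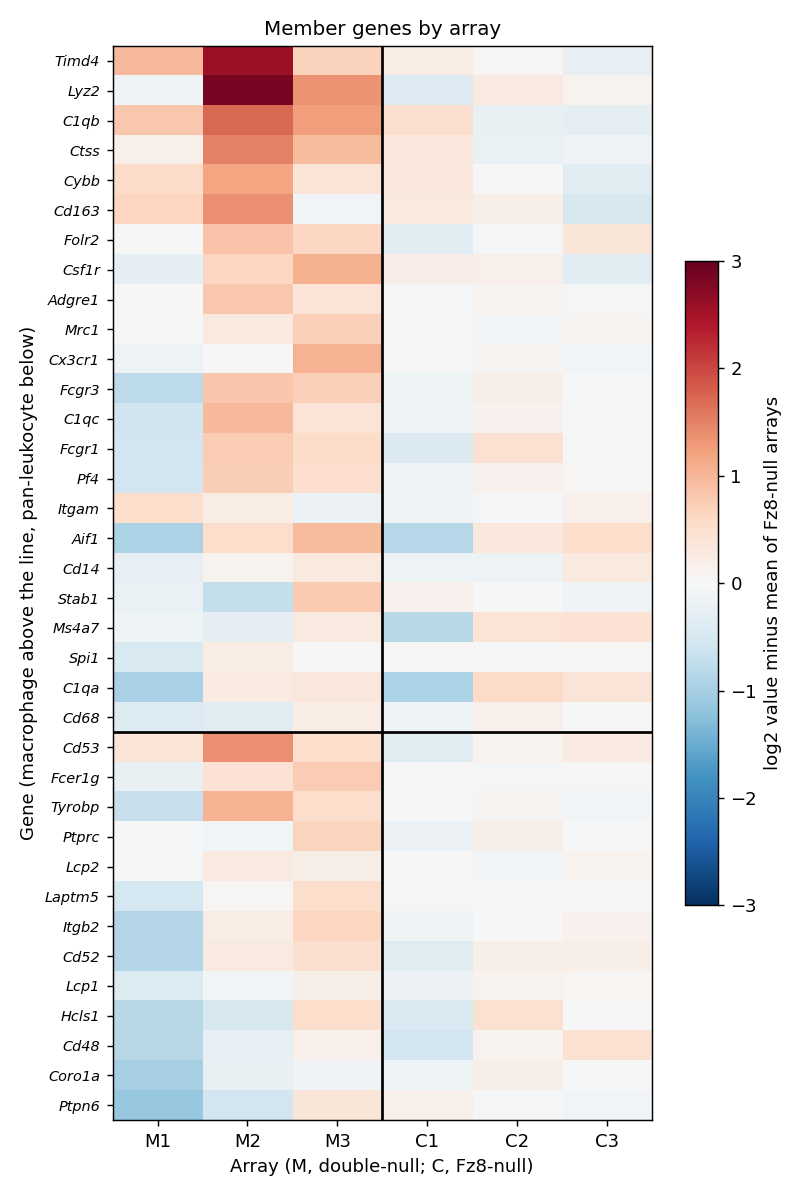
Heat map of the log2 value minus the mean of the Fz8-null arrays for the 36 genes (rows, macrophage genes above the line, ordered by their difference) in the 3 double-null and 3 Fz8-null arrays (columns). M2 and M3 are mostly red, M1 is mostly blue among pan-leukocyte genes, and the Fz8-null columns, centred on their own mean, are pale.

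Only 4 members had groups without overlap, all higher in double-null kidneys. These were the macrophage genes C1qb, Timd4 and Cybb and the pan-leukocyte gene Cd53, of which Timd4 and Cybb were dim. They make up 4 of 36 members, where 6.68% of all genes were higher without overlap, and 0 members were lower without overlap, where 12.2% of all genes were.

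C1qb, the C1q B chain gene, read 9.61, 10.53 and 10.05 in double-null kidneys and 9.29, 8.58 and 8.52 in Fz8-null kidneys. Every double-null array was above every Fz8-null array, with the smallest gap between M1 and C1. Its means were 10.06 ± 0.46 and 8.80 ± 0.43 (SD, n = 3 each), a difference of 1.27 (SE 0.30, limma adjusted p = 0.314; exact two-sided permutation p = 0.1, the smallest that 3 against 3 arrays allow). The other 2 C1qb probe sets were also without overlap, at 1.03 and 0.63. On the one at 0.63 the groups were barely apart, with M1 at 5.886 and C2 at 5.879. C1qb stayed higher in every alternative run. Leaving out M3 put its limma adjusted p at 0.0461, in a fit that 18.1% of all genes passed. Array weights put it at 0.00498, where 41.6% of all genes passed. In no other alternative fit did C1qb pass.

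The partner chains of C1q had smaller mean differences, with double-null arrays on both sides of their Fz8-null means. C1qc read 5.77, 7.34 and 6.74 in double-null kidneys and 6.25, 6.50 and 6.34 in Fz8-null kidneys, so that M1 was the lowest array and M2 the highest. The difference was 0.25 (SE 0.37, limma adjusted p = 0.732). C1qa, on a dimmer probe set, read 3.91, 5.11 and 5.22 in double-null kidneys and 3.91, 5.45 and 5.26 in Fz8-null kidneys. M1 and C1 were its 2 low arrays, and the difference was -0.13 (SE 0.50, adjusted p = 0.909), with an interval from -1.31 to 1.06.

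Among the genes that set macrophage identity, Csf1r, the receptor for CSF1 and IL-34, read 7.88, 8.79 and 9.21 in double-null kidneys. In Fz8-null kidneys it read 8.34, 8.29 and 7.80. M2 and M3 lay above all Fz8-null arrays and M1 among them, with a difference of 0.48 (SE 0.35, limma adjusted p = 0.485), which became 0.85 without M1, 0.19 without M3 and 0.31 without C3. The other Csf1r probe sets stood at 0.18 and -0.0040. Spi1, the PU.1 gene, stood at -0.082 with values from 4.76 to 5.43 in double-null and from 5.15 to 5.26 in Fz8-null kidneys. Cx3cr1, the receptor for the chemokine fractalkine, stood at 0.29, and its high value of 5.99 in M3 was the only array outside the span from 4.78 to 5.02.

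Lysosomal enzyme genes had the largest values in M2. Lyz2, which encodes lysozyme, read 6.89, 9.83 and 8.33 in double-null and 6.61, 7.27 and 7.10 in Fz8-null kidneys. M1 lay within the Fz8-null arrays, and the difference was 1.36 (SE 0.67, limma adjusted p = 0.353), which became 2.09 without M1 and 0.62 without M2. Ctss, the gene of the protease cathepsin S, read 7.71, 9.07 and 8.51 in double-null and 7.88, 7.36 and 7.45 in Fz8-null kidneys. Again M2 and M3 were above all Fz8-null arrays and M1 was below C1, at a difference of 0.86 (SE 0.34, adjusted p = 0.320), or 0.55 without M2.

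Cd68, a lysosomal membrane glycoprotein gene often used to stain macrophages, did not share that shape. It read 7.13, 7.24 and 7.77 in double-null and 7.41, 7.70 and 7.52 in Fz8-null kidneys, with M1 and M2 the lowest arrays of all 6. The difference was -0.17 (SE 0.20, limma adjusted p = 0.674). Cybb, which encodes the catalytic subunit of the phagocyte NADPH oxidase, was dim, at 4.88, 5.48 and 4.69 in double-null and 4.63, 4.32 and 3.96 in Fz8-null kidneys. Its groups did not overlap on any of its 3 probe sets, and the difference was 0.71 (SE 0.26, adjusted p = 0.314).

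**Figure D4:**
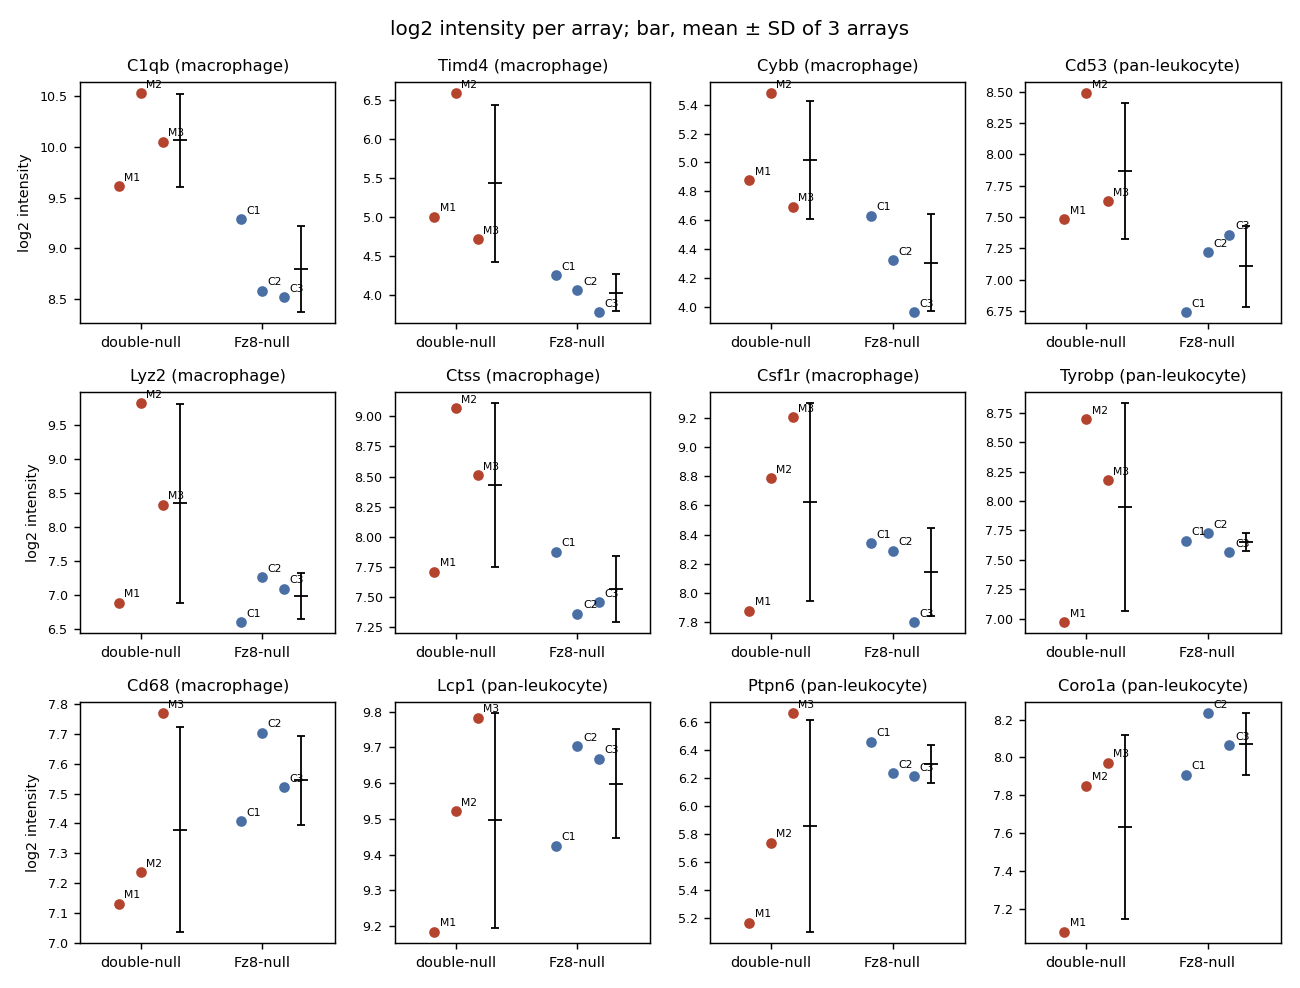
log2 intensity (vertical axis, scaled per gene) of 12 members in the 3 double-null and 3 Fz8-null arrays, with each array labelled and bars for mean ± SD. C1qb, Timd4, Cybb and Cd53 in the top row are without overlap, and in the other panels M1 lies within or below the Fz8-null arrays.

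Receptors for uptake of debris were mostly higher, 5 of 6, with a median difference of 0.41. Timd4, a receptor for phosphatidylserine on dying cells, read 5.0, 6.59 and 4.72 in double-null and 4.26, 4.06 and 3.78 in Fz8-null kidneys. The groups did not overlap, M2 stood far above the rest, and the difference of 1.40 (SE 0.47, limma adjusted p = 0.314) was the largest of the 36 members with all arrays. Without M2 it was 0.83, below C1qb at 1.04, and without M1 it was 1.62, below Lyz2 at 2.09. Mrc1, the mannose receptor gene, read 7.42, 7.72 and 8.16 in double-null and 7.44, 7.35 and 7.51 in Fz8-null kidneys, with M1 among the Fz8-null arrays (0.33, SE 0.20, adjusted p = 0.422). Stab1, a scavenger receptor of macrophages and of sinusoidal endothelium, was the only one of the 36 with M2 as the lowest of all 6 arrays, at 7.93, 7.42 and 8.91 in double-null and 8.26, 8.14 and 7.99 in Fz8-null kidneys. Its difference was -0.043 under the deposited scaling, 0.10 with quantile normalization and 0.14 with equal array medians. Cd163, the hemoglobin scavenger receptor gene, Folr2, a folate receptor gene, and Cd14, a coreceptor for endotoxin, stood at 0.64, 0.49 and 0.047. The groups overlapped for Cd163, Folr2 and Cd14.

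The murine B1 repeat control of the arrays read 11.83, 12.08 and 10.85 across the double-null arrays M1 to M3, and 11.02, 10.67 and 10.73 across the Fz8-null arrays. Timd4, Cybb and Cd163 were likewise highest in M2, then M1, among double-null arrays. The part of this signal in those dim genes was not tested.

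Both antibody receptor genes lay lowest in M1. Fcgr3, a low-affinity Fc gamma receptor gene, read 5.83, 7.46 and 7.33 in double-null and 6.48, 6.79 and 6.59 in Fz8-null kidneys, so M1 was below and M2 and M3 above all Fz8-null arrays. Fcgr1, the high-affinity receptor gene, had its lowest value, 5.01, in M1 and its highest, 6.33, in M2. Their differences were 0.25 (SE 0.42, limma adjusted p = 0.766) and 0.25 (SE 0.39, adjusted p = 0.753).

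Of the remaining macrophage genes 4 of 5 lay higher. Pf4, the platelet factor 4 gene, which fetal macrophages also express, read 7.30, 8.59 and 8.36 in double-null and 7.71, 7.99 and 7.89 in Fz8-null kidneys, with the same shape as Fcgr3. Its difference was 0.22 (SE 0.33, limma adjusted p = 0.736). Adgre1, which encodes the F4/80 antigen, stood at 0.40 (SE 0.21, adjusted p = 0.372), with 5.69 in M1 between C3 at 5.65 and C2 at 5.76. Aif1, the gene of the actin-binding protein IBA1, stood at 0.18 and read low, near 4, in both M1 and C1, as C1qa did. Ms4a7, a membrane protein gene of tissue macrophages, stood at -0.055 with C1 as its lowest array. Itgam, the CD11b integrin chain, read between 2.64 and 3.35 on all arrays and was among the dimmest members.

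Among pan-leukocyte genes, the adaptor genes Tyrobp and Fcer1g stood higher on average, as most macrophage genes did. Myeloid and natural killer cells use both adaptors to signal from activating receptors. In M1 Tyrobp lay at -0.68 relative to its Fz8-null mean, as did the median pan-leukocyte gene, and Fcer1g was highest in M3. Tyrobp read 6.97, 8.70 and 8.18 in double-null and 7.66, 7.73 and 7.57 in Fz8-null kidneys. The double-null arrays lay on both sides of a narrow Fz8-null group, with SDs of 0.89 and 0.08 and a difference of 0.30 (SE 0.41, limma adjusted p = 0.715). Fcer1g read 6.72, 7.37 and 7.70 in double-null and 6.95, 6.88 and 6.97 in Fz8-null kidneys, a difference of 0.33 (SE 0.25, adjusted p = 0.499). Counting both as macrophage genes gave medians of 0.29 for macrophage and -0.044 for pan-leukocyte genes.

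Surface genes of leukocytes were mixed, 2 of 5 higher. Cd53, a tetraspanin gene, read 7.48, 8.49 and 7.63 in double-null and 6.74, 7.22 and 7.36 in Fz8-null kidneys. All double-null arrays lay above all Fz8-null arrays, M1 by the least, and the difference was 0.76 (SE 0.30, limma adjusted p = 0.320), or 0.45 without M2. Cd52, a small glycoprotein gene of lymphocytes and macrophages, read 5.91, 7.06 and 7.27 in double-null and 6.43, 6.97 and 6.96 in Fz8-null kidneys, at -0.044. Its sign turned to 0.054 with quantile normalization and 0.14 with equal array medians.

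Ptprc, the gene of the pan-leukocyte phosphatase CD45, stood at 0.19 (SE 0.23, limma adjusted p = 0.676) on its brighter probe set, with 5.44, 5.39 and 6.13 in double-null and 5.29, 5.64 and 5.47 in Fz8-null kidneys. Only M3 lay outside the Fz8-null range there. A dimmer Ptprc probe set read 6.06, 6.88 and 3.63 in double-null and 4.25, 4.07 and 3.63 in Fz8-null kidneys, so the probe sets disagreed on which arrays were high, and M1 and M2, high on this one, had the highest B1 repeat signal. Itgb2, the common leukocyte integrin chain, and Cd48, a ligand of natural killer receptors, were dim, with means of 3.71 and 3.68 over the 6 arrays and differences of -0.0062 and -0.31.

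Cytoplasmic genes of the leukocyte class lay lower for 4 of 6, with a median difference of -0.18. Coro1a, an actin regulator of leukocytes, read 7.08, 7.85 and 7.97 in double-null and 7.91, 8.23 and 8.06 in Fz8-null kidneys. M1 was far below and M2 below all Fz8-null arrays, M3 lay within them, and the difference was -0.44 (SE 0.25, limma adjusted p = 0.403). Ptpn6, the gene of the phosphatase SHP-1, read 5.16, 5.74 and 6.66 in double-null and 6.46, 6.23 and 6.21 in Fz8-null kidneys, at -0.45 (SE 0.36, adjusted p = 0.526). M1 and M2 lay below and M3 above every Fz8-null array, and without M3 the difference was -0.85.

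Lcp1, the gene of the actin-bundling protein L-plastin, read 9.18, 9.52 and 9.78 in double-null and 9.42, 9.70 and 9.67 in Fz8-null kidneys, at -0.10 (SE 0.19, limma adjusted p = 0.786). Laptm5, a lysosomal membrane protein gene of blood cells, read 7.62, 8.19 and 8.68 in double-null and 8.17, 8.14 and 8.13 in Fz8-null kidneys, at 0.017 (SE 0.26, adjusted p = 0.978). M1 lay below and M3 above its 3 Fz8-null arrays, which had an SD of 0.02. Hcls1 and Lcp2, both adaptors of antigen receptor signalling, stood at -0.26 and 0.13.

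Members with several probe sets numbered 13. Of the 7 with more than 1 probe set at a mean of at least 4, the probe sets shared a sign for 5, and 0 of the 56 probe sets of members passed over all probe sets, where 0.0111% passed. Those that differed in sign were Csf1r and Laptm5. Of the 36 members, 4 lie on chromosome 7 with Fzd4, at distances of 12.4 Mb (Folr2), 37.3 Mb (Coro1a), 38.7 Mb (Itgam) and 59.0 Mb (Tyrobp) on GRCm38.p6.

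Further macrophage genes were also lowest in M1 and highest in M2 by their medians. Of 14 measured markers outside the 36 genes, 9 lay higher with a median difference of 0.36 and array medians of -0.12, 0.64 and 0.32 in M1, M2 and M3, and 0 passed. Ccr2, the chemokine receptor of monocytes, read 6.78, 6.81 and 5.15 in double-null and 4.67, 4.23 and 3.93 in Fz8-null kidneys, without overlap (1.97, SE 0.46, limma adjusted p = 0.314). Msr1, a scavenger receptor gene, stood at 0.63, likewise without overlap. Unlike the medians of their list, Ccr2 and Msr1 were lowest in M3 among the double-null arrays. The B1 repeat control was also lowest in M3 among these, and its part in both genes was not tested. Of the 10 genes for growth factors and chemokines 6 lay higher, with Ccl9 at 0.76 and Ccl6 at 1.01. The 9 transcription factor genes of macrophages were 4 higher and 5 lower, with a median of -0.037, and those of smallest p were Cebpa at -0.51 and Irf5 at -0.26. Of 5 class II antigen presentation genes 4 lay lower, Cd74 at -0.22, and Ciita stood at 0.38. None of these lists had a member past the threshold.

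**Figure D5:**
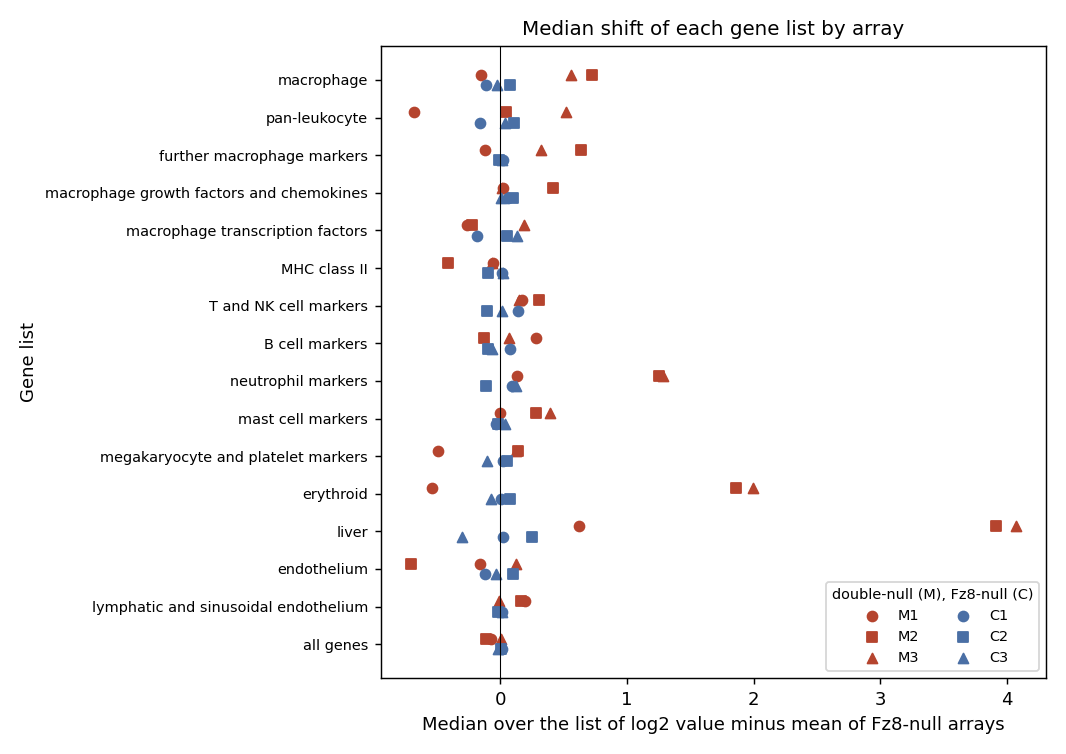
Median over each gene list of the log2 value minus the mean of the Fz8-null arrays (horizontal axis), for each array, with double-null arrays in red and Fz8-null arrays in blue. Macrophage, neutrophil, erythroid and liver lists have M2 and M3 to the right of M1, and the liver list reaches 4.07 in M3.

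Markers of other cell types that a dissected kidney can hold were high in the same arrays. Neutrophil markers, 9 of 9 higher with a median of 0.91, had array medians of 0.13, 1.25 and 1.28 in M1, M2 and M3, and their summed linear level ran from 259 to 1670 in double-null and from 252 to 311 in Fz8-null kidneys. Their genes of smallest p were Mmp8 at 1.06 and Ngp at 0.79. Erythroid markers, 9 of 10 higher, had medians of -0.54, 1.86 and 2.00, with sums from 10091 to 25590 in double-null and from 12498 to 14110 in Fz8-null kidneys (Hemgn at 3.06, Rhag at 1.09). Liver markers, 8 of 8 higher, had medians of 0.62, 3.91 and 4.07, with sums from 1125 to 10496 in double-null and from 465 to 792 in Fz8-null kidneys (Afp at 3.22, Alb at 3.63). The erythroid medians lay below the Fz8-null mean in M1 and above it in M2 and M3. Both member classes had medians of the same signs, as had other lists such as the megakaryocyte and platelet markers. M3 was highest for erythroid and pan-leukocyte genes, and M2 for macrophage genes. The part of the erythroid signal in the differences above was not tested.

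The remaining lineages were dim or mixed, and 0 of their genes passed. T and natural killer markers had 7 of 8 higher at a median of 0.15 with 4 genes at a mean below 4, and sums from 150 to 191 in double-null and from 126 to 151 in Fz8-null kidneys (Cd3e at 1.00, Ncr1 at 0.30). B cell markers had 3 of 5 higher at 0.14 (Ms4a1 at 1.30, Cd79a at 0.84), with sums from 152 to 201 in double-null and from 133 to 151 in Fz8-null kidneys. Mast cell markers had 4 of 6 higher at 0.19 (Ms4a2 at 1.01, Mcpt4 at 0.21), with sums from 97 to 213 in double-null and from 81 to 104 in Fz8-null kidneys. Megakaryocyte and platelet markers were 3 of 7 higher at -0.054 (Ppbp at -1.04, Gp1bb at 0.49), with M1 lowest at -0.49 and sums from 237 to 382 in double-null and from 336 to 383 in Fz8-null kidneys.

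Endothelial markers, a lineage that shares Stab1 and Mrc1 with macrophages, were 4 of 14 higher with a median of -0.31 (Kdr at -0.80, Esam at -0.61), and sums ran from 3760 to 5389 in double-null and from 4980 to 5518 in Fz8-null kidneys. Their lowest array was M2, at -0.71, as for Stab1. Mrc1 lay at 0.28 in M2, and the median of the lymphatic and sinusoidal markers there was 0.16. Lymphatic and sinusoidal markers were 4 of 5 higher at a median of 0.017 (Lyve1, which macrophages also carry, at 1.05, Flt4 at -0.63), with sums from 2467 to 2770 in double-null and from 2539 to 2826 in Fz8-null kidneys. RNA integrity, read as the log2 excess of the 3′ over the 5′ Gapdh control, was 1.15, 1.04 and 0.88 across the double-null arrays M1 to M3, and 1.01, 0.80 and 0.79 across the Fz8-null arrays. For b-actin the excess was 1.30, 1.08 and 0.57 in the double-null and 1.00, 0.74 and 0.75 in the Fz8-null arrays. M1 was the highest array for both controls, while M3 lay above C2 and C3 for Gapdh and below every Fz8-null array for b-actin. The part of RNA integrity in these values was not tested.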

How the data were processed

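RNA from 6 samples of whole E13.5 kidney was measured on Affymetrix MOE430.2 arrays from 100 ng of total RNA, per the labels' protocols. The deposited log2 probe-set intensities were normalized with RMA, per the submitters' processing notes (version not given in the sources used here), and array medians over all probe sets lay between 6.02 and 6.14. Of 45101 probe sets, 64 were controls. Of the other 45037, 34945 were annotated to 1 gene, 932 to several and 9160 to none, which gave 18193 genes.

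Both genotypes were compared by two-sided moderated tests (lmFit and eBayes in limma 3.58.1, R 4.3.3), with Benjamini-Hochberg adjustment over all genes and a threshold of 0.05, after the script was tested on simulated data. A positive difference means higher in double-null kidneys. Summed levels add linear values over a list. The labels call the samples biological replicates and give no batch, so p-values measure the spread between these samples.

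The members, classes, companion lists and PU.1 core were chosen with earlier results of these data known, so lists carry counts and medians with no test. All members were named, with each array given for those at a mean of at least 6 and for some dimmer ones picked after their values were seen, and from each companion list the 2 genes of smallest p where none passed. Alternatives covered scaling, a minimum mean, moderation (none, or trend and robust), array weights, a replicate block, each array left out, the class of a few genes and the mean of all probe sets. The deviations from the group means correlated at 0.17 between M1 and C1, -0.14 between M2 and C2 and 0.090 between M3 and C3, so the numbers were not taken to pair the samples.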

Additional observations from a re-analysis of the deposited data

How the results depend on the processing

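Of 36 members 0 passed under 12 of the 14 alternative fits, the exceptions being array weights and the fit without M3. Over all genes the count of 5 became 1 without moderation, 1 with the mean of all probe sets and 3 with the replicate block, which changed no member's call, and ran from 2 to 3292 with 1 array left out. Array weights gave M1 and C2 the most weight and called 7576 genes, 41.6% of all, and 14 of 36 members. That fit put 12 of 36 members higher, beside 42.1% of all genes. It moved the medians to -0.10 for macrophage and -0.46 for pan-leukocyte genes. Of those 14 members 5 were higher (C1qb, Timd4, Cybb, Cd163 and Itgam) and 9 lower, and the cause was not tested. Signs that turned under array weights were those of Csf1r (-0.094), Cx3cr1 (-0.10), C1qc (-0.44), Cd14 (-0.19), Fcgr1 (-0.59), Fcgr3 (-0.63), Aif1 (-0.99), Pf4 (-0.45), Tyrobp (-0.46), Fcer1g (-0.086), Ptprc (-0.084) and Laptm5 (-0.41). Equal array medians over the 18193 genes gave 32 members higher (64.9% of all genes), 9 without overlap, all 9 higher (13.0% of all genes), an all-gene median of 0.12 and turned signs for Spi1 (0.098), C1qa (0.054), Stab1 (0.14), Cd68 (0.014), Ms4a7 (0.12), Itgb2 (0.17), Cd52 (0.14) and Lcp1 (0.076). Quantile normalization turned Stab1 (0.10), Cd14 (-0.078), Cd52 (0.054) and Lcp1 (0.015), and the mean of all probe sets turned Ms4a7 (0.0074) and Laptm5 (-0.031). A minimum mean of 6 kept 18 members, of which 12 were higher, beside 28.5% of all genes of that level. The groups were without overlap for 2, both higher (3.08% of all genes of that level), at an all-gene median of -0.15. With 1 array left out, members higher numbered 19 to 31, those without overlap 4 to 20 (4 to 20 on the higher side) and those passing 0 to 3. Of all genes, 39.9% to 44.9% then lay higher, 8.32% to 19.2% were higher without overlap and 0.0110% to 18.1% passed. The medians ran from 0.13 to 0.65 for macrophage and from -0.25 to 0.29 for pan-leukocyte genes. The counts of members higher and without overlap with 1 array left out were chosen after seeing the data. Over these fits the members whose sign turned ranged as follows: Spi1 -0.23 to 0.11, C1qa -0.61 to 0.29, Stab1 -0.45 to 0.29, Itgb2 -0.33 to 0.43, Cd52 -0.30 to 0.37, Hcls1 -0.65 to 0.019, Lcp1 -0.25 to 0.054, C1qc -0.11 to 0.68, Fcgr1 -0.0068 to 0.65, Fcgr3 -0.039 to 0.78, Ms4a7 -0.48 to 0.16, Pf4 -0.032 to 0.61, Tyrobp -0.077 to 0.79, Cx3cr1 -0.089 to 0.52, Cd14 -0.073 to 0.20, Aif1 -0.25 to 0.74, Ptprc -0.052 to 0.32 and Laptm5 -0.24 to 0.29. Those whose sign held ranged as follows: Csf1r 0.19 to 0.85, C1qb 1.04 to 1.51, Mrc1 0.13 to 0.50, Cd163 0.28 to 1.01, Folr2 0.31 to 0.74, Timd4 0.83 to 1.76, Lyz2 0.62 to 2.09, Ctss 0.55 to 1.22, Cd68 -0.36 to -0.041, Cybb 0.48 to 0.87, Adgre1 0.20 to 0.60, Itgam 0.016 to 0.37, Fcer1g 0.11 to 0.60, Cd53 0.45 to 0.95, Cd48 -0.60 to -0.052, Ptpn6 -0.85 to -0.10, Lcp2 0.058 to 0.22 and Coro1a -0.61 to -0.16. Low signal, near 3 or 4 on the log2 scale, limits Itgam, Cd163, Itgb2, Cd48 and Hcls1. It also limits Timd4 and Cybb, whose means in Fz8-null kidneys were 4.03 and 4.31. For scale, the deleted Fzd4 read 5.29, 4.96 and 3.89 in double-null kidneys.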

Other observations

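A few dim leukocyte probe sets were high in M1 and M2 and not in M3, unlike the macrophage genes as a class. The dimmer Ptprc probe set read 6.06 and 6.88 in M1 and M2 and 3.63 in M3, and Cd3e, a T cell receptor complex gene, read 5.26, 5.59 and 3.42 in double-null and 3.76, 3.90 and 3.61 in Fz8-null kidneys. Ms4a1, which encodes CD20 of B cells, read 4.68, 5.56 and 3.92 in double-null and 3.92, 3.32 and 3.02 in Fz8-null kidneys. The murine B1 and B2 repeat controls were highest in the same arrays, B2 at 13.82, 13.82 and 13.38 in double-null and 13.56, 13.40 and 13.44 in Fz8-null kidneys. These genes were chosen after their values were seen, and the part of the repeat signal in them was not tested.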
